A study of Mus musculus with 4 samples.

Results

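In the heart section taken 4 days after injury, called d4 here, 237 of 659 capture spots held at least 1 UMI (a counted RNA molecule) of Egr1, and 422 held none. The spots were chosen by their total of at least 2500 UMIs, and the Egr1 count of each spot's full library set its group, so the Egr1 level of either group describes the choice and is no result. The section lists 665 spots and the 4 sections of the series list 3067. The d4 section came from 1 heart of an ICR mouse in which a cooled probe had frozen the tip of the left ventricle for 5 seconds at postnatal day 1, and the animal was at postnatal day 5. The other 3 sections, d1, d7 and d14, came from hearts injured the same way and taken 1, 7 and 14 days later. Every section was cryoinjured, none is labelled as uninjured, and each time point had 1 section. Fresh frozen tissue was cut at 10 µm and measured with the 10x Genomics Visium assay, in which barcoded spots under the tissue capture RNA from the several cells that lie above each of them.

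Egr1 is a zinc finger transcription factor and an immediate early gene: its RNA appears within minutes of growth factor, stretch or wounding signals, without new protein synthesis, and disappears soon after. It binds GC-rich sites in promoters, and the corepressors Nab1 and Nab2, of which Nab2 is itself a known Egr1 target, limit its activity. In the injured heart Egr1 is known from cardiomyocytes, fibroblasts and vessel walls, and the title of the series ties it to senescence during repair. Spots with and without detected Egr1 RNA were therefore compared for all other genes of the section.

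Detection went with depth. The detected spots had a median of 10607 UMIs (3611 to 26254) and 3682 genes, against 7142.5 UMIs (2862 to 22601) and 2809.5 genes in the undetected spots. Most detected spots rested on few molecules: 150 held 1 Egr1 UMI, 49 held 2, 25 held 3, 6 held 4, 4 held 5 and 3 held 6, which makes 385 Egr1 UMIs in all. The ranges of total UMIs overlapped across nearly their whole length. The share of spots with Egr1 was 24.1% (53 of 220) in the tertile with the fewest UMIs, 32.0% (70 of 219) in the middle tertile and 51.8% (114 of 220) in the deepest. Each spot was therefore thinned at random to 2500 UMIs, after which 10.5%, 13.2% and 13.6% of the spots of these tertiles held an Egr1 UMI, with overlapping 95% intervals. All levels below are in CPM, thinned UMIs per 1e6 thinned UMIs pooled over the spots of a group. The detected spots kept 97 Egr1 UMIs, a level of 163.7 CPM (95% Poisson interval 132.8 to 199.7), and 34.6% of them still held one. Of the spots left out, the deepest had 2462 UMIs, and the shallowest kept had 2862.

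The labelled tissue was borne out by its markers, since Myh6, a cardiomyocyte myosin, had a UMI in 236 of 237 detected and 421 of 422 undetected spots. Because a spot holds several cells, a higher level can mean more cells of a type or more RNA per cell, and these cannot be told apart. With 1 section there is no test between groups and no p-value. Spots share 1 heart and are not replicates, so the intervals given cover counting error only. The array's barcodes are shared by design, and of the 665 at d4, 422 also occurred at d7.

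Egr1 was detected at the highest rate in 2 of 6 expression regions. The regions are clusters of spots with alike expression, numbered 0 to 5, made without Egr1 and without the genes of the outcome lists. The cell type marker lists and the mitochondrially encoded and haemoglobin genes were not left out. Their ratios within regions are therefore not independent of how the regions were made. Region 2, led by Cthrc1, Tagln, Eln, Lox and Tnc, had the largest share of UMIs from a list of injury genes (2.92%) and the smallest mitochondrially encoded share (1.959%). Its genes define it and are not results. In it, 37 of 52 spots were Egr1-detected, and 26.9% (95% Clopper-Pearson interval 15.6 to 41.0) still were after thinning. Region 5, led by Nppa, H19, Cpe and Tm4sf1, had 47 detected spots of 81, and 23.5% (14.8 to 34.2) after thinning. The lowest share was in region 0, led by Kdr, Txlnb and Acsl1, at 5.08% (2.35 to 9.43) after thinning, and its interval did not overlap those of regions 2 and 5. Regions 1, 3 and 4, led by cardiomyocyte and fatty acid oxidation genes such as Hadh, Acaa2 and Myh6, lay between at 11.0%, 10.2% and 13.3%. The intervals of these regions overlapped those of regions 2 and 5. Regions 2 and 5 held 15.6% and 19.8% of the detected spots, but 3.55% and 8.06% of the undetected ones. Most detected spots thus lay in the other regions, with region 1 holding 29.96% of them. They were also the deepest regions, with median totals of 12803 and 11719 UMIs against 6163 to 10757 in the others. Every pooled difference below therefore compares groups with unlike makeup by region, and a ratio combined within regions (Mantel-Haenszel) is given for the lists and genes that the results turn on.

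**Figure D1:**
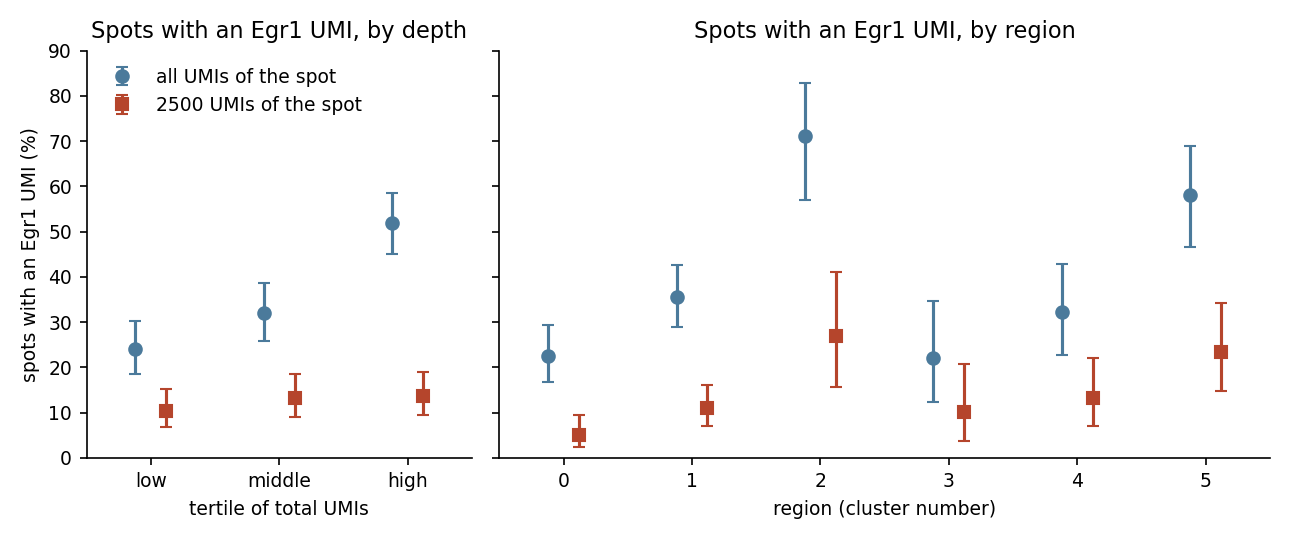
Share of d4 spots with an Egr1 UMI (%, vertical axis) by tertile of total UMIs (left) and by expression region (right), with 95% Clopper-Pearson intervals. Circles use all UMIs of a spot and squares use 2500; by squares the tertiles lie between 10.5% and 13.6%, while region 2 reaches 26.9% and region 5 reaches 23.5%.

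Of 5221 genes with at least 50 thinned UMIs over both groups, 183 (3.51%) were higher and 97 (1.86%) lower in the detected spots, each by at least 1.5-fold with a 95% interval of the ratio that excluded 1. The median log2 ratio over the tested genes was 0.02, with 2716 genes above 1 and 2505 below. Counts of list members given below are to be read beside these shares of all tested genes. A 95% interval misses on each side for up to 2.5% of genes by counting error alone, so a single call near the limits carries little weight. With a 99.9% interval, 54 higher and 3 lower calls were left. Over 6 random thinnings, 27 genes were called higher each time and 0 lower each time. The 27 were, among cardiomyocyte genes, Nppa, Nppb, Acta1 and Xirp2. Among matrix, fibroblast and smooth muscle genes they were Col1a1, Fn1, Eln, Postn, Cthrc1, Fstl1, Lox, Loxl1, Loxl2, Bgn, Mfap4, Mgp, Efemp2, Adamtsl2, Cnn1, Tagln and Ccn2. The remaining 6 were Megf6, Apoe, Dkk3, Gpx3, Clu and the noncoding RNA Snhg18. This set of 27 was listed by the outcome of those thinnings, which share the same spots. Within regions, 75 genes (1.44%) were higher and 112 (2.15%) lower. Of the 183 genes higher in the pooled comparison, 157 had a ratio above 1 within regions, 26 were below 1, and 46 were also past the 1.5-fold rule. Over all 5221 tested genes, 2543 were above 1 within regions. The 183 were chosen by the same thinned counts, which by itself favours ratios above 1 within regions, so nothing is read from these numbers.

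Nppa, which encodes atrial natriuretic peptide and is re-expressed by ventricular cardiomyocytes under load or injury, was the gene whose ratio lay farthest from 1 by its interval. Detected spots held 0 to 130 thinned Nppa UMIs with a median of 6, and undetected spots held 0 to 98 with a median of 2. The groups overlapped widely, and the highest spots were detected ones. The pooled level was 7214 CPM against 2480 CPM, a ratio of 2.91 (2.77 to 3.06). Part of this contrast ran between regions: within regions the ratio was 1.58 (1.504 to 1.67), and within regions and tertiles of depth together it was 1.24. In region 2 the level was 18962 CPM in detected against 10133 CPM in undetected spots, and in region 5 it was 12153 against 8000 CPM. Region 3 went the other way, at 400.0 against 1009 CPM, on 13 and 116 UMIs. Nppa lies on chr4 from 148000722 to 148002079 (mm10, plus strand).

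Acta1, skeletal muscle alpha-actin, which immature and stressed cardiomyocytes also make, had the same pattern at a lower level. It was found in 68 of 237 detected spots (28.7%) and in 70 of 422 undetected spots (16.6%), with at most 14 and 8 UMIs in a spot. Its level was 310.5 CPM against 102.4 CPM, a ratio of 3.03 (2.38 to 3.88), and 1.79 (1.37 to 2.34) within regions. The difference was widest in region 2, at 1124 against 400.0 CPM. Nppb, the gene of brain natriuretic peptide, was at 155.3 against 91.9 CPM, 1.69-fold (1.26 to 2.27), and its ratio within regions was 1.22 (0.89 to 1.68). Xirp2, an intercalated disc protein, was 2.35-fold higher but 1.05 within regions. Ankrd1, a stretch-responsive sarcomere gene, stayed under the fold limit at 1.37 (1.249 to 1.499), with 1.22 within regions, as did the ventricular myosin Myh7 at 0.92. Of the 14 genes of the stressed cardiomyocyte list, 13 could be tested, 5 were higher and 0 lower. The list's summed level was 15600 CPM against 10266 CPM, 1.52-fold (1.48 to 1.56), and 1.22 (1.18 to 1.253) within regions. Nppa carried most of it, since the ratio without Nppa was 1.08 (1.04 to 1.12).

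Ratios were also taken within each tertile of depth. Of the 183 higher genes, 141 were above 1 in each tertile, and of the 97 lower genes 76 were below 1 in each. These ratios come from the same thinned counts by which the genes were chosen, so nothing is read from these numbers of genes. Nppa was at 996 against 704 CPM in the shallowest tertile (1.41, 1.14 to 1.74), 2446 against 1297 in the middle (1.89, 1.65 to 2.15) and 13032 against 6940 in the deepest (1.88, 1.78 to 1.99). Its level thus differed more between the tertiles than between the groups within one. Eln was at ratios of 1.37, 2.75 and 1.65 in the same order, Col1a1 at 1.14, 1.97 and 1.58, and Ier2 at 1.26, 3.01 and 1.71. Nppb, in contrast, was at 0.56, 0.94 and 1.61, with intervals that included 1 in the first pair. Combined over the tertiles, the matrix list was at 1.43 (1.39 to 1.48) and the stressed cardiomyocyte list at 1.28 (1.24 to 1.31). Within a tertile, the median totals of detected and undetected spots still differed somewhat in the deepest, at 14495 against 13089.5 UMIs.

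Nppa and Acta1 are also atrial and skeletal muscle genes, so the rest of those marker lists was read beside them. Of 8 atrial genes, Bmp10 was at 0 and Sln had 1 UMI, in the detected spots. Myl7, an atrial myosin light chain, had 10 UMIs in detected and 4 in undetected spots. Myl4 was higher at 1.88-fold (1.28 to 2.75) and Dkk3 at 2.23-fold (1.26 to 3.98), with ratios of 1.28 and 1.21 within regions. The summed list without Nppa was 1.93-fold higher (1.47 to 2.53). Of 10 skeletal muscle genes, 3 were at 0, and the list without Acta1 was at a ratio of 1.04 (0.35 to 2.86). The part of atrial cells in the Nppa ratio was not tested.

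Extracellular matrix genes formed the largest group of higher genes in the pooled comparison. The collagens and matrix list had 5 to 245 thinned UMIs in a detected spot with a median of 21, and 2 to 252 with a median of 16 in an undetected spot. Both groups thus reached the same top values, and the middle of the detected group was somewhat higher. Of 21 genes, 20 could be tested, all 20 had a ratio above 1, 11 were higher by the rule and 0 lower. Over all tested genes, 2716 of 5221 were above 1 and 3.51% were higher by the rule. The list's median log2 ratio was 0.61. The summed level was 13801 CPM against 9062 CPM, 1.52-fold (1.48 to 1.57). Combined within regions the ratio was on the other side of 1, at 0.92 (0.89 to 0.95), with 4 of 20 genes above 1 and a median log2 ratio of -0.14. The regions were not alike in this: the ratio was 0.71 in region 2 and 1.10 (1.016 to 1.185) in region 5, and in the others its interval included 1.

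Eln, which encodes elastin, was found in 59.1% of detected and 40.0% of undetected spots, at 1279 against 588 CPM (ratio 2.18, 1.96 to 2.43), but at a ratio of 0.82 (0.73 to 0.91) within regions. Lox, the enzyme that cross-links collagen and elastin, was at 87.8 against 35.1 CPM (2.50, 1.61 to 3.92) and at 0.99 within regions. For Col1a1, the main chain of type I collagen, the levels were 1271 and 763 CPM (1.67, 1.51 to 1.84), with 0.91 within regions. Fstl1, a secreted glycoprotein of fibroblasts and epicardium, was at 1.86 pooled and 0.92 (0.79 to 1.07) within regions. Cthrc1, a marker of activated fibroblasts, was at 2.88 and 0.87 (0.55 to 1.37). Adamtsl2, a fibrillin-binding matrix protein, was at 2.25 and 0.87 (0.59 to 1.27). For Lox, Col1a1, Fstl1, Cthrc1 and Adamtsl2 the intervals within regions included 1. Postn, the periostin gene of activated fibroblasts, was at 1266 against 724 CPM (1.75, 1.58 to 1.94) and 1.05 within regions. Mgp, matrix Gla protein, was at 479 against 213 CPM (2.25, 1.88 to 2.69) and 1.13 within regions. Cnn1, the smooth muscle calponin, rested on 45 and 23 UMIs (3.48, 2.06 to 6.03) and stayed at 1.38 (0.81 to 2.35) within regions. Megf6, a protein with epidermal growth factor repeats, was at 2.60 (1.84 to 3.68) and 1.34 (0.95 to 1.89).

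Fibroblast, smooth muscle and macrophage markers moved with these genes in the pooled comparison. Of 10 fibroblast markers, 9 could be tested and 3 were higher, with a summed ratio of 1.32 (1.23 to 1.43), and smooth muscle markers were at 1.35 (1.26 to 1.45) with 3 of 7 higher. The macrophage list of 19 genes, of which Timd4 was at 0, was at 499.6 against 308.1 CPM, 1.62-fold (1.38 to 1.90). Lyz2 and Tyrobp were its higher genes, 2 of 5 tested, where 3.51% of all tested genes were higher. Within regions these lists were at 0.98, 1.02 and 0.90. The marker genes were not left out when the regions were made, so nothing is read from these 3 ratios within regions. The matricellular and activated fibroblast list, with 7 of 11 tested genes higher, was at 1.66 (1.57 to 1.76) pooled and 1.00 within regions. Markers of neutrophils (16 and 42 UMIs in detected and undetected spots) and of lymphocytes and mast cells (17 and 33 UMIs) were near 0 in both groups.

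**Figure D2:**
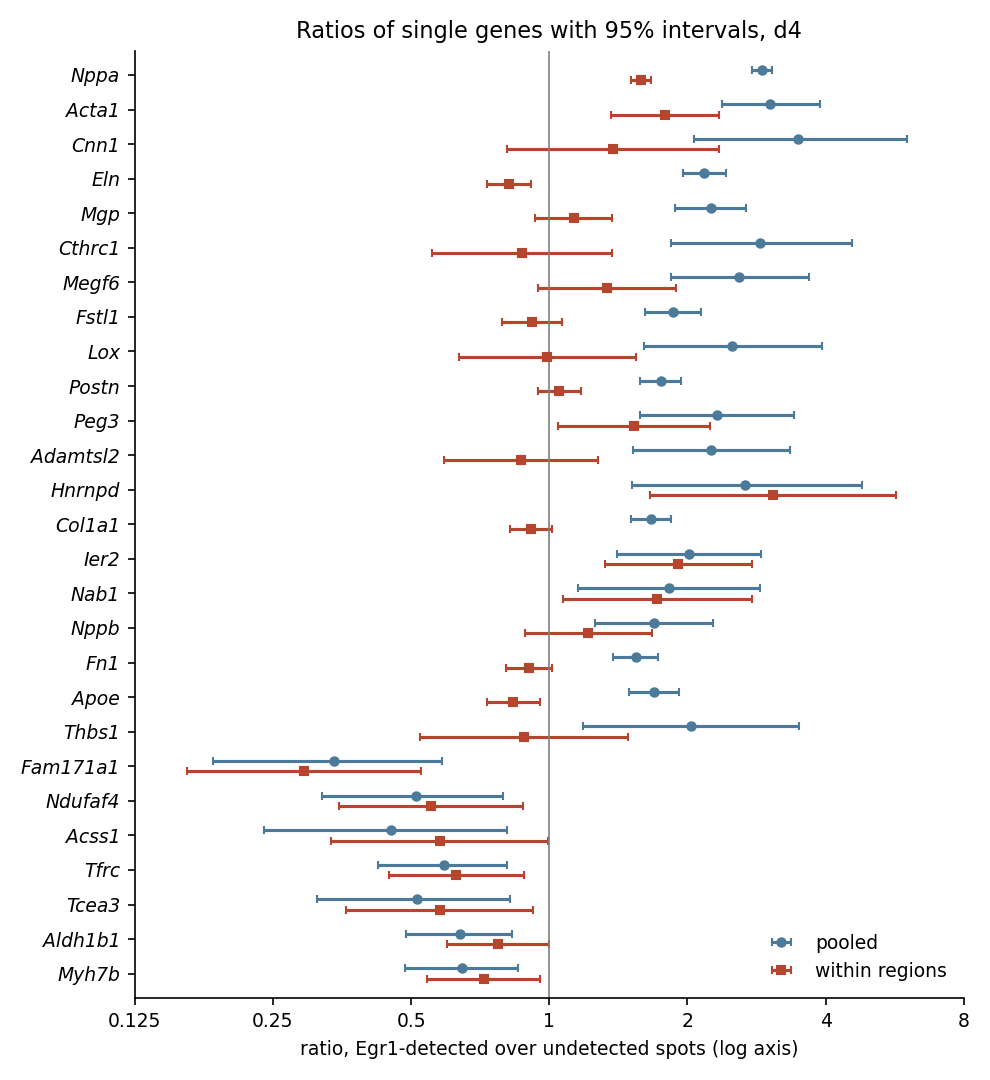
Ratio of the pooled level in Egr1-detected over undetected d4 spots (horizontal log axis) for 27 genes, with 95% intervals. Circles are pooled and squares are combined within the 6 regions. Nppa and Acta1 stay above 1 in both. Eln moves from 2.18 to 0.82 and Col1a1 from 1.67 to 0.91, where the interval of Col1a1 includes 1. Ier2, Hnrnpd and the 7 lower genes keep their side in this thinning.

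Inside region 2, the spots with Egr1 had lower matrix and higher cardiomyocyte levels than those without. Their matrix list was at 41405 CPM, against 58347 CPM in the 15 spots of the region without Egr1, a ratio of 0.71 (0.67 to 0.75). The mature cardiomyocyte list, by contrast, was at 27535 against 16560 CPM (1.66, 1.52 to 1.82), and the stressed cardiomyocyte list at 27427 against 15573 CPM (1.76, 1.61 to 1.93). Macrophage markers were at 1816 against 2347 CPM (0.77, 0.59 to 1.01). In the other 5 regions the matrix ratio lay between 1.00 and 1.10, and the mature cardiomyocyte ratio between 0.94 and 1.03. Over all spots outside region 2 the pooled matrix ratio was 1.2 (1.16 to 1.246), and outside regions 2 and 5 it was 1.04. Whether these spots sat at an edge of the injured tissue could not be read, because spot positions were not used here.

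**Figure D3:**
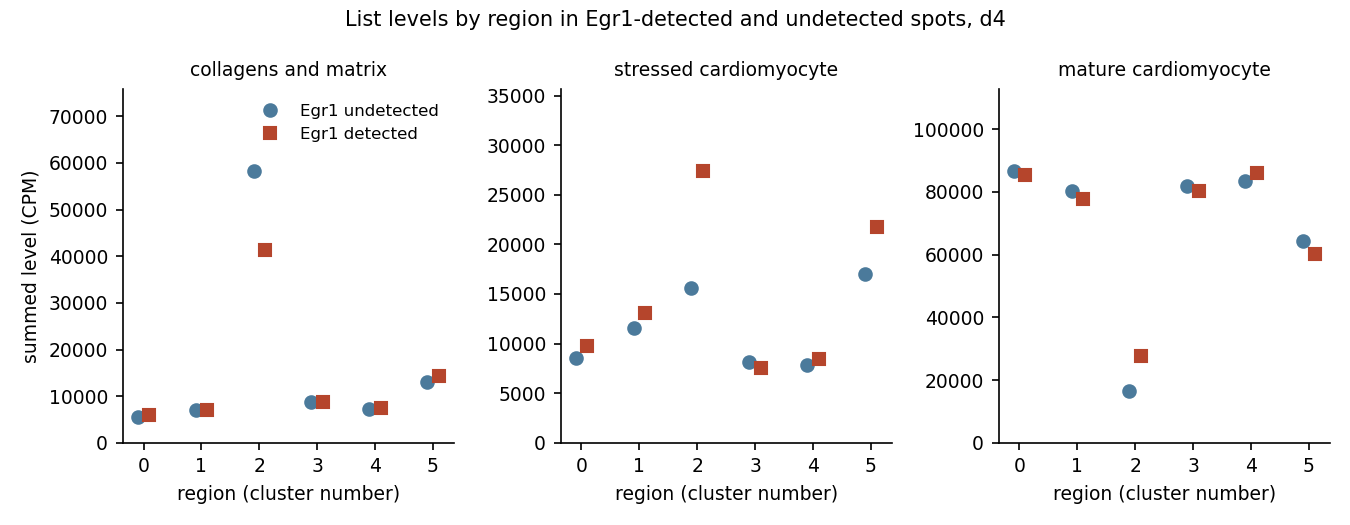
Summed level of 3 gene lists (CPM, vertical axis) in Egr1-undetected (circles) and Egr1-detected (squares) d4 spots of each region. In region 2 the detected spots are lower for matrix (41405 against 58347 CPM) and higher for both cardiomyocyte lists, while the other regions differ little for matrix.

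Genes of the working myocardium were lower in the detected spots by less than the fold limit. The mature cardiomyocyte list of 21 genes was at 68942 against 79491 CPM, a ratio of 0.87 (0.86 to 0.88). None of its 21 genes was above 1 and 0 passed the rule, with Myl2 at 0.89 and Myh6 at 0.85. Over all tested genes, 2716 of 5221 were above 1 and 1.86% were lower by the rule. Fatty acid oxidation genes were at 0.86 (0.84 to 0.88), nuclear genes of the respiratory chain at 0.91 (0.90 to 0.93) and mitochondrially encoded genes at 0.84 (0.83 to 0.86), with mt-Co1 at 0.87. Combined within regions all 4 lists were between 0.99 and 1.01, but single regions differed. Of the 4, the mitochondrially encoded genes were not left out when the regions were made. In region 2 the ratios, in the same order, were 1.66, 1.70, 1.37 and 1.13, all with intervals that excluded 1. In region 5 all 4 were below 1, and the intervals excluded 1 for mature cardiomyocyte (0.94) and mitochondrially encoded genes (0.91). Mitochondrially encoded genes were at 1.249 in region 3, and the mature list at 0.97 in region 1 and 1.03 in region 4. The intervals of all other ratios by region included 1. The immature cardiomyocyte list, which holds fetal sarcomere genes such as Actc1 and Tnni1, was at 1.00 (0.97 to 1.03). Endothelial markers were at 2241 against 2737 CPM, 0.82 (0.77 to 0.87), with 0 of 11 tested genes above 1, and stayed at 0.91 (0.85 to 0.97) within regions. Kdr, the main endothelial receptor for vascular endothelial growth factor, was at 0.81 (0.60 to 1.08), and Fabp4, a fatty acid carrier of capillary endothelium, at 0.79 (0.72 to 0.87). Within regions they were at 0.94 and 0.92, with intervals that included 1. By region, the endothelial ratio was above 1 in region 2, at 1.37 (0.94 to 2.05), and in region 4, at 1.014 (0.85 to 1.202), both with intervals that included 1. It was below 1 in the others, and only in region 0, which Kdr leads, did the interval exclude 1, at 0.77 (0.67 to 0.89).

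Other immediate early genes differed little between the groups. The list of 28 genes, without Egr1, had 0 to 9 thinned UMIs with a median of 2 in the spots of both groups. Its summed level was 1035 against 910 CPM, 1.14-fold (1.03 to 1.26), and 1.09 (0.98 to 1.22) within regions. This was the highest ratio of the 6 thinnings, whose lowest was 1.03 and median 1.06, and without thinning it was 1.08 (1.02 to 1.13). Of 12 tested genes, 6 were above 1, and Ier2 was the gene past the rule. Ier2, a nuclear protein induced by the same signals, was found in 24.1% of detected and 13.7% of undetected spots. Its level of 116.5 against 57.8 CPM gave a ratio of 2.01 (1.41 to 2.89), and it stayed at 1.91 (1.33 to 2.76) within regions, but it was called in 2 of 6 thinnings. It was above 1 in 5 regions and below 1 in region 4, at 41.4 against 65.6 CPM on 3 and 10 UMIs. Klf2, the flow-responsive factor of endothelium, was at 0.94 (0.71 to 1.23), Dusp1, a phosphatase of MAP kinases, at 1.22 (0.89 to 1.67), and Jun at 1.15 (0.75 to 1.74). Fos, often induced together with Egr1, had 3 UMIs in detected and 15 in undetected spots (0.36, 0.07 to 1.26). Its ratio ran from 0.32 to 1.13 over the 6 thinnings, and without thinning it was 1.13 (0.64 to 1.95) on 26 and 32 UMIs. Nr4a1 had 7 and 17 and Junb 6 and 13 UMIs, so no difference was detectable at this depth for these 3 genes.

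Among the partners of Egr1, Nab1 passed the rule in 2 of 6 thinnings, with ratios from 0.96 to 1.82 and a median of 1.46. In the thinning used here, which gave the highest of these, it had 42 UMIs in detected and 41 in undetected spots, 70.9 against 38.9 CPM, a ratio of 1.82 (1.16 to 2.88) and of 1.72 (1.07 to 2.76) within regions. Nab2 had 11 and 13 UMIs (1.51, 0.61 to 3.65). The paralogs Egr2 and Egr3 had 7 against 2 and 4 against 3 UMIs, with ratios of 6.23 (1.19 to 61.5) and 2.37 (0.40 to 16.2), and Egr4 was at 0. Nab2 and both paralogs were under the minimum for testing. With all UMIs of the spots in place of 2500, Egr2 had 19 UMIs in detected and 3 in undetected spots and Nab2 had 58 and 36. The unthinned Nab2 ratio was 2.23 (1.45 to 3.49), and that of Nab1 was 1.22 (0.95 to 1.56). The 5 genes of the family list together were at 1.93 (1.33 to 2.80), and at 1.71 (1.15 to 2.54) within regions, on 64 and 59 UMIs. Over the 6 thinnings this ratio ran from 1.26 to 2.11 with a median of 1.4999 and passed the rule in 3, and without thinning it was 1.58 (1.297 to 1.93). The immediate early, MAPK feedback, Yap and Srf, and agrin lists had intervals within regions that included 1.

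Of 19 genes reported as Egr1 targets in other cells, 8 could be tested and 3 were higher. Fn1, fibronectin, was at 1013 against 657 CPM (1.54, 1.38 to 1.72), Apoe, apolipoprotein E of macrophages and other cells, at 807 against 477 CPM (1.69, 1.49 to 1.92), and Thbs1, an activator of TGF-beta, at 54.0 against 26.5 CPM (2.03, 1.19 to 3.51). The list was at 1.44 (1.34 to 1.55) pooled and 0.88 (0.81 to 0.95) within regions, where these 3 genes were at 0.90, 0.84 and 0.88. The target list thus followed the matrix genes with which it shares Fn1, and had 5 of 8 genes above 1 pooled against 2 of 8 within regions.

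Genes of senescence arrest and of the cell cycle showed no difference past the rule in the thinning used here. The senescence arrest list was at 616 against 555 CPM, 1.11-fold (0.97 to 1.27), and 1.09 (0.95 to 1.253) within regions, with 0 of 7 tested genes called. Without thinning this list was at 1.08 (1.01 to 1.16) on 1518 and 1945 UMIs, a small ratio whose interval excluded 1. Cdkn1a, the p21 inhibitor of cyclin-dependent kinases, was found in 18 detected spots (7.59%) and 39 undetected ones (9.24%). Its ratio was 0.83 (0.45 to 1.45), an interval that leaves room for a difference in either direction. This was the lowest Cdkn1a ratio of the 6 thinnings, whose median was 0.99 and highest 2.37, and it was called higher in 1 of them. Without thinning it was 1.05 (0.78 to 1.41) on 85 and 112 UMIs. The secretory list was 1.33-fold higher (1.23 to 1.44), with Serpine2 and Igfbp7 past the rule among 9 tested, and was at 0.94 (0.86 to 1.02) within regions. Mitosis genes were at 1.08 (0.99 to 1.19) and DNA replication genes at 0.97 (0.88 to 1.07), with ratios of 1.00 and 0.95 within regions. Without thinning they were at 1.06 (1.01 to 1.11) and 1.015 (0.97 to 1.06). Of their tested genes, 0 of 15 and 0 of 14 were called. Over all tested genes 3.51% were higher and 1.86% lower, so 0 calls in lists this short says little about their genes. Mki67, a marker of cycling cells, was at 0.89 (0.63 to 1.24). Agrn, the matrix proteoglycan agrin that acts through dystroglycan, was at 126.6 against 120.4 CPM (1.05, 0.78 to 1.41). In its list of 13 genes, Dmd and Sgcb, parts of the dystrophin complex, were the higher ones among 12 tested, at 1.97 (1.14 to 3.41) and 1.67 (1.16 to 2.41), and each was called in 1 of 6 thinnings.

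**Figure D4:**
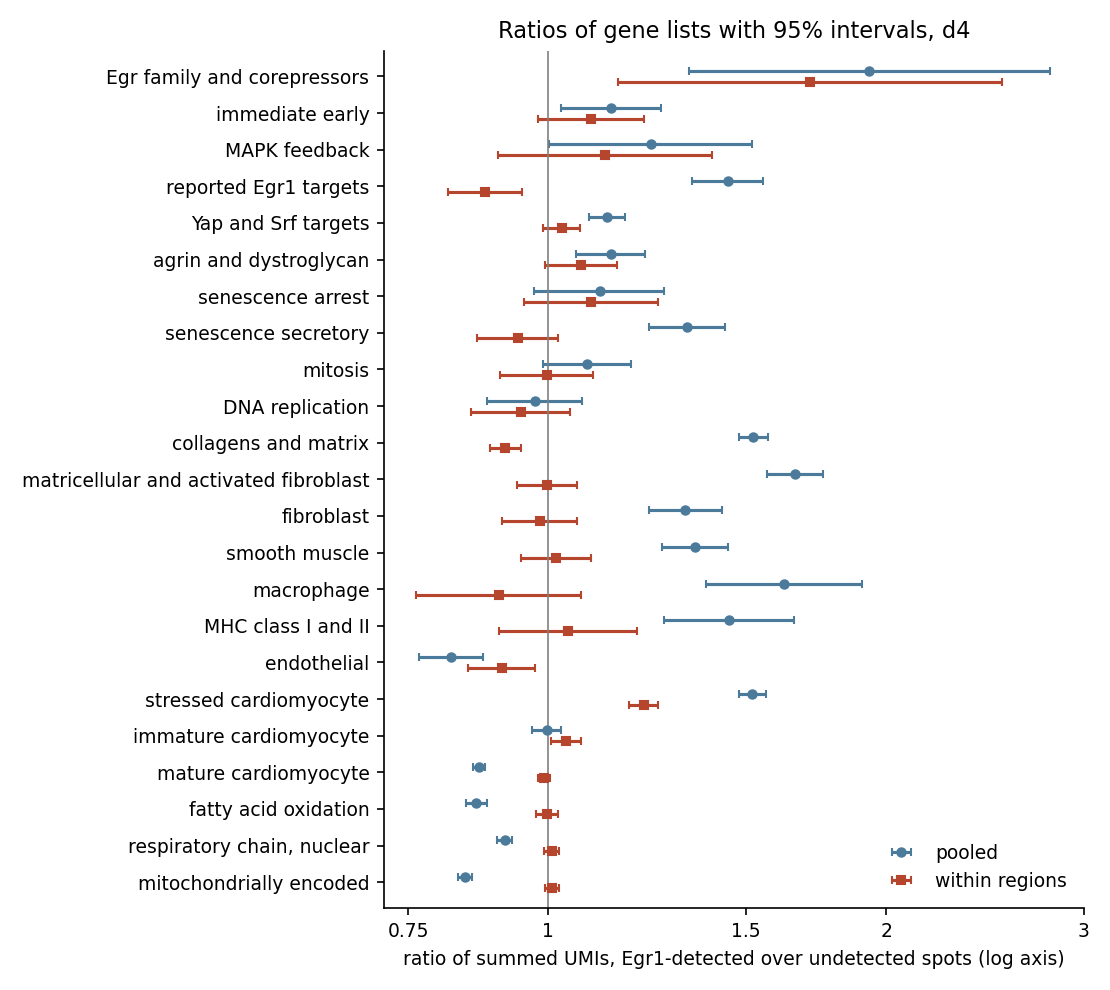
Ratio of summed UMIs in Egr1-detected over undetected d4 spots (horizontal log axis) for 23 gene lists, with 95% intervals. Circles are pooled and squares are combined within the 6 regions. The matrix, macrophage and target lists move from above 1 to 1 or below, while the Egr family list, at 1.71, and the stressed cardiomyocyte list, at 1.22, stay above 1. The cell type marker and mitochondrially encoded lists were not left out when the regions were made.

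Pooled over regions, levels were graded with the number of Egr1 UMIs in a spot, and so was the makeup by region. Regions 2 and 5 held 11.6% of the spots with 0 Egr1 UMIs, 25.3% of those with 1, 40.8% of those with 2 and 68.4% of those with 3 or more. Matrix list levels were 9062 CPM in the 422 spots with 0 Egr1 UMIs, 11949 in the 150 with 1, 15935 in the 49 with 2 and 18358 in the 38 with 3 or more. Nppa followed the same order more steeply, at 2480, 5331, 7959 and 13684 CPM, and Acta1 went from 102.4 to 248.0, 277.6 and 600.0 CPM. The order was the reverse for the mature cardiomyocyte list, at 79491, 73176, 65322 and 56895 CPM, and for mitochondrially encoded genes, at 57427, 52157, 46204 and 36621 CPM. For these 3 lists and Nppa the 95% intervals of neighbouring classes did not overlap, and for Acta1 those of 1 and 2 Egr1 UMIs did. Immediate early genes were at 910, 987, 1029 and 1232 CPM, and neighbouring classes were not separable. Macrophage markers were at 308.1, 424.0, 620.4 and 642.1 CPM, and the classes with 1 or more Egr1 UMIs had overlapping intervals. Nab1 was not graded, with 31.6 CPM on 3 UMIs in the last class. Median total UMIs were 7142.5, 9469.5, 11554 and 13326.5 in these classes, and the part of depth in the gradient was not tested.

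Outside regions 2 and 5, with 373, 112, 29 and 12 spots in the same classes, the matrix list did not follow this order, at 6724, 7175, 6648 and 6167 CPM. The mature cardiomyocyte list lay between 80014 and 83403 CPM there, and the intervals of macrophage markers overlapped across all 4 classes. Nppa was still at 1669, 2671, 2593 and 5200 CPM, with overlapping intervals for 1 and 2 Egr1 UMIs. Acta1 was at 82.6, 96.4, 151.7 and 400.0 CPM, and its last class rested on 12 UMIs. The stressed cardiomyocyte list was at 9439, 10532, 10869 and 13900 CPM. Mitochondrially encoded genes were at 60669, 60236, 58083 and 51900 CPM, and their last class stayed apart from the others.

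**Figure D5:**
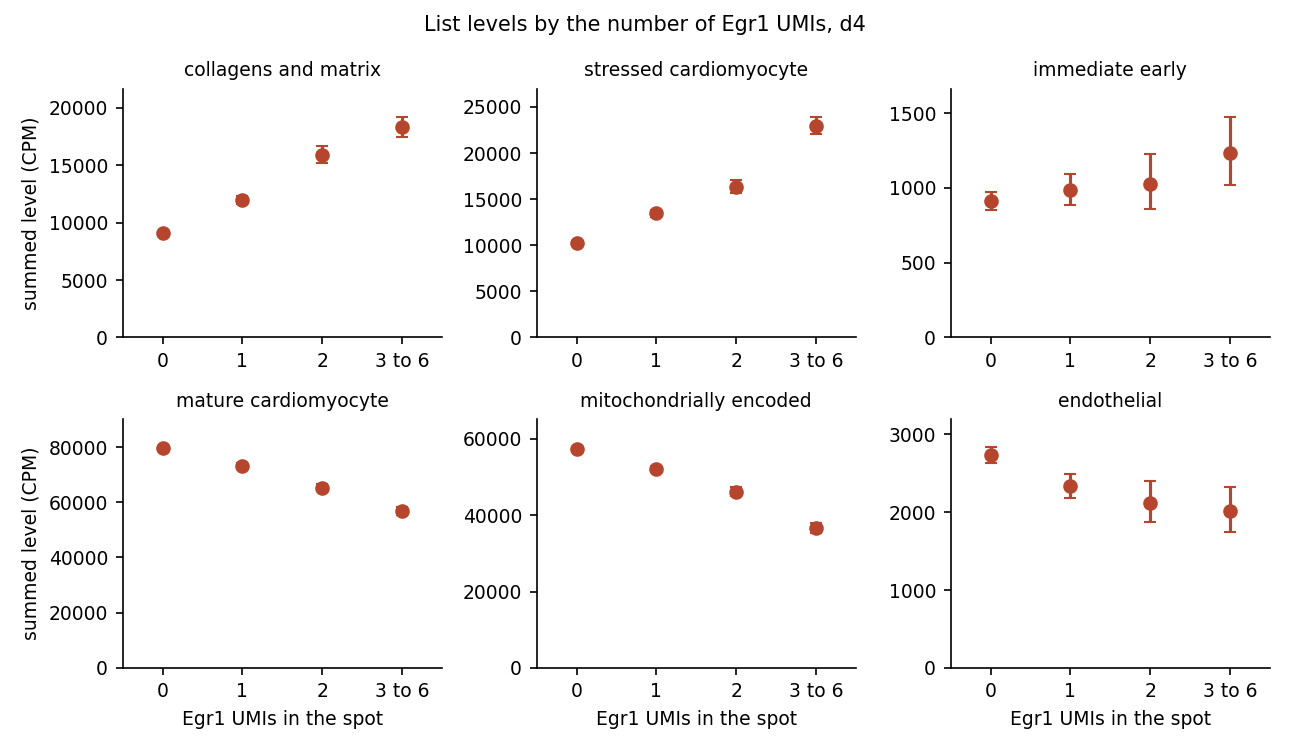
Summed level (CPM, vertical axis) of 6 gene lists by the number of Egr1 UMIs in a d4 spot before thinning (0, 1, 2, or 3 to 6), with 95% Poisson intervals. Pooled over regions, matrix goes from 9062 to 18358 CPM and stressed cardiomyocyte genes go up with it, while mature cardiomyocyte, mitochondrially encoded and endothelial genes go down.

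The genes that were lower in detected spots were rarer and less stable. Fam171a1, a membrane protein, had 16 UMIs in detected and 84 in undetected spots, in 15 (6.33%) and 73 spots (17.3%), a ratio of 0.34 (0.19 to 0.58), and 0.29 within regions. Tfrc, the transferrin receptor for iron uptake, had 53 and 160 UMIs (0.59, 0.42 to 0.81), and Aldh1b1, a mitochondrial aldehyde dehydrogenase, had 80 and 223 (0.64, 0.49 to 0.83). These 3 were the lower genes left with a 99.9% interval, but Fam171a1 was called in 3 of 6 thinnings and the others in 1, with ratios up to 0.98, 0.99 and 0.92. Without thinning they were at 0.83, 0.79 and 0.73. Of the mitochondrial genes, Acss1, which makes acetyl-CoA from acetate, was at 0.45 (0.24 to 0.81) and Ndufaf4, an assembly factor of complex I, at 0.51 (0.32 to 0.79). The elongation factor Tcea3 was at 0.51 (0.31 to 0.82) and the myosin heavy chain gene Myh7b at 0.65 (0.48 to 0.85). These values were the lowest of the 6 thinnings. The highest were 0.89 for Acss1, 0.94 for Ndufaf4, 0.91 for Tcea3 and 0.87 for Myh7b, and Acss1 was called in 2 thinnings and the other genes in 1. Without thinning the 4 genes were at 0.62, 0.78, 0.75 and 0.74. Of the 97 lower genes, 4 were called without thinning. All 97 were below 1 within regions, but those ratios come from the same thinned counts by which the genes were chosen, so nothing is read from that count.

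Hnrnpd, Peg3 and Ier2 were among the 46 higher genes that also passed the rule within regions in this thinning. Hnrnpd, an RNA-binding protein that binds AU-rich elements, had 33 and 22 UMIs (2.67, 1.51 to 4.81) and was at 3.07 (1.66 to 5.68) within regions. Its unthinned ratio was 1.67 (1.27 to 2.20) on 118 and 98 UMIs, and 1 of the 6 thinnings put it at 0.85. Peg3, an imprinted zinc finger gene, was at 2.31 (1.58 to 3.42) and at 1.53 (1.04 to 2.24) within regions, and at 1.37 (1.13 to 1.67) without thinning. Ier2 was at 1.19 (0.99 to 1.44) without thinning, with a range of 1.15 to 2.01 over the thinnings. The size of these ratios thus depended on which 2500 UMIs were drawn, which was not so for Nppa (2.86 to 2.99), Eln (2.18 to 2.33) or the matrix list (1.52 to 1.57).

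Promoter stretches of 4 genes, each the 250 bases before the RefSeq start (GRCm38.p6), are shown to set the most different gene pair beside immediate early genes with an EGR site. Nppa (chr4:148000472-148000721, plus strand) and Acta1 (chr8:123894776-123895025, minus strand) were chosen after their values were seen. Zfp36 (chr7:28379229-28379478, minus strand) and Klf2 (chr8:72318812-72319061, plus strand) are immediate early genes. Capitals mark EGR motifs (GCGTGGGCG or GCGGGGGCG, on either strand) and the CArG box that serum response factor binds, and the sequences run 5′ to 3′ toward the start.

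Nppa: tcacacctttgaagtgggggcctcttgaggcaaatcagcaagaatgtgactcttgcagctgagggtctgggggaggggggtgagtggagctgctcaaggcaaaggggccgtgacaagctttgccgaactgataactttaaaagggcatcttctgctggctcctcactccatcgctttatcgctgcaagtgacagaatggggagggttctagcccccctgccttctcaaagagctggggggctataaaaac
Acta1: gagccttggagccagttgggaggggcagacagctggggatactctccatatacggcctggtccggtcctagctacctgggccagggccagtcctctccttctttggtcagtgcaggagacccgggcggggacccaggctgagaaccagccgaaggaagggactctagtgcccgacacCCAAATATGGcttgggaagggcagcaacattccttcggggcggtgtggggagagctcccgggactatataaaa
Zfp36: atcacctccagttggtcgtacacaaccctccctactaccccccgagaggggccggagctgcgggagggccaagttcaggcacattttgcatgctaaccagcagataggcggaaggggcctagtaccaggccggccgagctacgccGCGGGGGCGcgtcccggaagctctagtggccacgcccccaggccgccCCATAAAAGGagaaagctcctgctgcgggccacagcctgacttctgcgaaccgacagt
Klf2: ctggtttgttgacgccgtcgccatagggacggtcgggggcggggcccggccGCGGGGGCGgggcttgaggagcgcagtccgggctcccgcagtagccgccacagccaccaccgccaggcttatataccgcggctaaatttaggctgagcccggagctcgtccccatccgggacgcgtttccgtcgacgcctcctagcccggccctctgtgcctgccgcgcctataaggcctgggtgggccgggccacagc

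The Nppa stretch held neither motif and that of Acta1 held 1 CArG box, 73 bases before the start. Zfp36 held an EGR motif at 105 and a CArG box at 58 bases before the start, and Klf2 an EGR motif at 199. An EGR motif was in 3.06% of 32851 promoters of this length, counted by promoter. It was in 7.06% of the 4179 tested genes with a promoter in the table. This share and those below count a gene when any of its promoters matched, so they are not in the same unit as the 3.06%. It was in 11 of 140 higher genes (7.86%) and 5 of 76 lower genes (6.58%), shares close to that of the tested genes. Of 23 immediate early genes, 8 (34.8%) held one, and of the 9 matched among the 14 named higher genes, 0 did. The CArG box was in 1.91% of tested genes, 4 of 140 higher and 2 of 76 lower genes. These matches describe letters in a short window, and no match says only that the letters are not in it.

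The same split at the other times gave other sizes. At d7 Egr1 was as often seen as at d4, in 290 of 771 spots and in 12.6% (10.3 to 15.1) after thinning against 12.4% (10.0 to 15.2). Few of the d4 genes passed the rule there: of 171 genes higher at d4 and tested at d7, 3 did so as higher at d7, where 1% of all tested genes did. Of 88 lower genes, 4 were lower by the rule at d7, against 1.8% of all genes. Of the 171, 53.8% were above 1 at d7, against 50.1% of all genes tested at both times. The matrix list was at 10299 against 10035 CPM at d7 (1.03, 1.00 to 1.06), and the stressed cardiomyocyte list at 6967 against 6792 CPM (1.03, 0.99 to 1.06). Nppa at d7 was at 473 against 396 CPM (1.195, 1.04 to 1.38), and Ier2 at 100.7 against 63.2 CPM (1.59, 1.14 to 2.23). At d1, with 41 detected spots of 405, the matrix list was at 1.58 (1.47 to 1.70) and macrophage markers at 1922 against 652 CPM (2.95, 2.50 to 3.47). At d14, with 45 of 1044, the matrix list was at 1.67 (1.59 to 1.75), Nppa at 2.40 (2.21 to 2.62) and Ier2 at 3.17 (1.67 to 5.58). Ier2 was thus above 1 in each section, with an interval that included 1 at d1 (1.31, 0.40 to 3.36). With 1 section a time, no difference between times was tested.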

How the data were processed

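RNA of 1 heart section per time point was captured on Visium spots. The files hold deposited raw UMI counts for each gene in each spot, which Space Ranger 1.3.0 wrote, per the file headers. The submitters' processing notes name genome build mm10 and Seurat 4.1.1, whose role is not stated. How the listed spots were picked is not given in the sources used here. Spot positions and images were not used, and no doublet caller applies to spots.

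The members, gene lists and named genes were chosen with earlier results of these data known. Spots of 2500 or more UMIs were kept (d4: 659 of 665), and each was thinned without replacement to 2500 UMIs (seed 17, and 5 other seeds). Egr1-detected meant 1 or more Egr1 UMI before thinning. Counts were pooled per group. Ratios carry an exact conditional binomial (Clopper-Pearson) 95% interval and levels an exact Poisson one, for counting error only. A gene was called at 50 or more thinned UMIs, a ratio of 1.5 or more (or its inverse or less) and an interval excluding 1, with Egr1 left out. Ratios within tertiles of total UMIs or within regions are Mantel-Haenszel ratios with Greenland-Robins intervals.

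Regions were Leiden clusters (scanpy 1.11.5, igraph 0.11.9, resolution 0.8) from 2000 variable genes, 15 principal components and 15 neighbours per spot, made without Egr1 and the outcome list genes. Cell type marker, mitochondrially encoded and haemoglobin genes that are on no outcome list were not left out. Of 43 lists, the text gives those that bear on the comparison. Aldoa, whose symbol is shared by several IDs, was not measured.

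The named genes were the 14 higher and 14 lower called genes, alike in direction in all tertiles, whose interval bound nearest 1 lay farthest from it, without predicted, ribosomal, haemoglobin, mitochondrially encoded and sex-linked marker genes. Of the 14 lower ones 7 are given. For each list, up to 4 members with the most UMIs could be named, as could Egr2, Egr3, Nab1, Nab2, Cdkn1a, Agrn, Nppa and Mki67. All other genes, and which list members serve as examples, were chosen after their values were seen. Promoters came from RefSeq (GRCm38.p6, the build of mm10), and gene coordinates from GENCODE vM21, to which 32158 of 32285 features matched by ID. The scripts were tested on simulated counts. The alternatives tried were other minimums, folds, intervals, thinnings and depths, 2 or more Egr1 UMIs, detection after thinning, 2 other scalings, ratios within tertiles or regions, other resolutions, and leaving out region 2 or regions 2 and 5. Computation used Python 3.11.15 with numpy 2.4.6, scipy 1.17.1, pandas 2.3.3 and matplotlib 3.10.9.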

Additional observations from a re-analysis of the deposited data

Results flagged for a closer look

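In 3 results the pooled ratios of the d4 and d7 sections went opposite ways with intervals that excluded 1 in both. Adamtsl2, a matrix protein gene, was 2.25-fold higher in Egr1-detected spots at d4 (62 and 49 UMIs) and at 0.498 (0.28 to 0.85) at d7 (18 and 60 UMIs). The Yap and Srf targets list was at 1.13 (1.09 to 1.17) at d4 and at 0.967 (0.94 to 1.00) at d7. The haemoglobin list was at 0.89 (0.84 to 0.94) at d4 and at 1.35 (1.31 to 1.39) at d7, and was also above 1 at d14, at 1.32 (1.23 to 1.40). Combined within regions, the d4 ratios were 0.87 (0.59 to 1.27) for Adamtsl2, 1.03 (0.99 to 1.07) for the Yap and Srf targets and 1.02 (0.97 to 1.08) for haemoglobin, all with intervals that included 1, so the opposite directions hold for the pooled d4 ratios. The difference between the sections was not tested in any of these, since each time had 1 section.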

How the results depend on the processing

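The numbers of called genes moved by over 1.5 times with other minimums, folds and intervals, without thinning, within regions and without region 2 or regions 2 and 5, and stayed within that limit under the other settings run, among them 5 other thinnings. Higher and lower calls numbered 298 and 159 with a minimum of 20 UMIs, 90 and 39 with 100, 34 and 22 at 2-fold, and 54 and 3 with the 99.9% interval. Without region 2 they numbered 71 and 63, and without regions 2 and 5 they numbered 53 and 57. Higher calls alone moved past 1.5 times at a lower fold limit (291), without thinning (332), within regions (75) and within regions and tertiles (71). The region 2 share of spots with Egr1 was 71.2% in unthinned counts.

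All further values are log2 ratios. The matrix list, at 0.61, was at 0.65 in another thinning, 0.91 for 2 or more Egr1 UMIs, 0.52 within tertiles, 0.26 without region 2, and 0.057 without regions 2 and 5. It changed sign within regions (-0.13) and within regions and tertiles (-0.076). The stressed cardiomyocyte list, at 0.60, was at 0.91 for 2 or more Egr1 UMIs, 0.27 for detection after thinning and 0.35 within tertiles. It was at 0.28 within regions, 0.14 within regions and tertiles, 0.41 without region 2, and 0.20 without regions 2 and 5. Without Nppa it was at 0.11, and its median over members was 0.38.

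Other changes of sign came mostly within regions. There the reported Egr1 targets were at -0.19, senescence secretory genes at -0.0903, matricellular genes at -0.0044, midkine and growth factors at -0.023, fibroblast markers at -0.025 and macrophage markers at -0.15. Glycolysis was at 0.029, the nuclear respiratory chain at 0.0101, mitochondrially encoded genes at 0.011 and haemoglobin at 0.032. Of single genes, Eln was at -0.29, Cthrc1 at -0.20, Fstl1 at -0.12, Lox at -0.015, Adamtsl2 at -0.21, Col1a1 at -0.13 and Fn1 at -0.15. Apoe was at -0.26, Thbs1 at -0.18, Col3a1 at -0.12, Sparc at -0.041, Col1a2 at -0.20, Lyz2 at -0.073 and mt-Co1 at 0.043. The intervals of Eln, Apoe, Col3a1, Col1a2 and mt-Co1 lay wholly on the new side, and those of the other single genes spanned both sides.

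Within regions and tertiles, the target list was at -0.13, secretory genes at -0.079, smooth muscle markers at -0.011, macrophage markers at -0.11, glycolysis at 0.019, mitochondrially encoded genes at 0.0052 and haemoglobin at 0.038. Eln was at -0.25, Cthrc1 at -0.091, Fstl1 at -0.12, Adamtsl2 at -0.22, Col1a1 at -0.033, Fn1 at -0.099, Apoe at -0.17 and Thbs1 at -0.24. Col3a1 was at -0.036, Sparc at -0.021, Col1a2 at -0.14, Lyz2 at -0.089, Clu at -0.10, Myh6 at 0.0017 and mt-Co1 at 0.029.

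Without region 2, Cthrc1 was at -0.11. Without regions 2 and 5, Cthrc1 was at -0.036, Fstl1 at -0.14, Col1a1 at -0.013, Col1a2 at -0.079, macrophage markers at -0.077, glycolysis at 0.024, the nuclear respiratory chain at 0.0022 and mt-Co1 at 0.0083. Other thinnings put MAPK feedback genes at -0.0899 and -0.11, the agrin list at -0.014, Myl7 at -0.016, Hnrnpd at -0.24, Nab1 at -0.057, Dmd at -0.49 and -0.40, and Sgcb at -0.17 and -0.056. Hypoxia genes changed sign in other thinnings (0.032 and 0.046), without thinning (0.026) and with 5000 UMIs (0.015). The cause was not tested for any of these.

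Neither scaling alternative moved a list or named gene beyond its interval, and both other resolutions left region 2 with 52 spots and a share of 26.9%. The settings of 99.9%, of regions and tertiles together, and without regions 2 and 5 were chosen after seeing the data. No paired analysis was possible because each time point had 1 section. Genes under 50 thinned UMIs, which include Egr2, Egr3, Nab2, Fos and most cytokines, could not be compared at this depth, and Egr1 itself was seen as 1 UMI in 150 of 237 detected spots, so an undetected spot is not one without Egr1 RNA.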

Other observations

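The MHC class I and II list was at 680 against 469 CPM, 1.45-fold (1.27 to 1.66), with H2-K1 past the rule at 1.69 among 3 tested, and was at 1.04 (0.90 to 1.199) within regions. Among secreted growth factors, Ptn (pleiotrophin) was 1.85-fold and Mdk (midkine) 1.504-fold higher, 2 of 7 tested, and both were at 1.02 within regions. Clu, the chaperone clusterin, was at 513 against 208 CPM, 2.47-fold (2.07 to 2.95), and 1.10 (0.91 to 1.33) within regions. Hypoxia genes were at 638 against 726 CPM, 0.88 (0.78 to 0.99), with 0 of 6 past the rule and 0.88 (0.78 to 1.01) within regions. Heat shock genes were at 1.04 (0.99 to 1.08), interferon response genes at 1.10 (0.91 to 1.32) and Notch and endothelial activation genes at 1.03 (0.86 to 1.23).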
